A study of Mus musculus with 6 samples.

Results

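The heat shock proteins and their cochaperones were followed in CD3ε+ CD45+ lymphocytes of the small intestinal epithelium, where B220+ cells were set against B220− cells. A gene was a member if it was protein-coding in the deposited annotation and its symbol began with Hspa, Hspb, Hspd, Hspe, Hsph, Hsp90, Dnaja, Dnajb, Dnajc or Bag followed directly by a digit, or was Hsf1 or Hsf2. This gave 78 of the 55487 genes in the table. The cytosolic and endoplasmic reticulum HSP90 genes (Hsp90aa1, Hsp90ab1 and Hsp90b1) have a letter at that place, so they fell outside the rule and are given as relatives. Lymphocytes had been sorted from wild-type C57BL/6J mice, and no label names a treatment for any of the 6 libraries. The B220+CD3ε+CD45+ group, named X cells by the submitters, and the B220−CD3ε+CD45+ group, named T cells, had 3 libraries each. CD3ε belongs to the signalling part of the T cell receptor, CD45 is the phosphatase carried by leukocytes, and B220 is the CD45 isoform that marks B cells in particular. The sources used here do not give the age or sex of the mice, or whether a library pools animals.

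HSP70 proteins bind short hydrophobic stretches of unfolded proteins and release them through cycles of ATP binding and hydrolysis. J proteins of the DNAJA, DNAJB and DNAJC classes bring clients to HSP70 and start ATP hydrolysis, while BAG proteins and the HSP110 relatives drive the exchange of ADP for ATP that ends the cycle. Small heat shock proteins hold unfolding proteins in a form that can be refolded, and HSF1 is the transcription factor that raises many of these genes after heat and other protein stress. In lymphocytes the inducible members are also known to respond to activation and to the handling of cells outside the body.

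The total count per library was 11810859, 39591312 and 14173322 in B220+ replicates 1, 2 and 3, against 18773165, 17753655 and 11320363 in B220− replicates 1, 2 and 3. Levels are given as CPM, counts relative to library sizes scaled by trimmed means, with scaling factors of 0.990 to 1.01. Summed CPM of the 5 Paneth cell markers was 5.00, 8.74 and 72.3 in B220+ replicates 1, 2 and 3, against 5.87, 9.52 and 75.9 in B220− replicates 1, 2 and 3, so both libraries numbered 3 were high. The 14 epithelial markers summed to 342 to 389 CPM in B220+ libraries, against 316 to 382 CPM in B220− libraries. Most of each sum was Cdh1, at 242 to 274 CPM in B220+ libraries, against 246 to 293 CPM in B220− libraries. Epcam came next, at 68.72 to 81.01 CPM in B220+ libraries, against 19.99 to 49.01 CPM in B220− libraries, with no overlap. Epcam was not called by edgeR (adjusted p = 0.1697) but was by DESeq2 (adjusted p = 0.0405). Similar sums therefore do not show that the list as a whole was similar. The 9 T cell identity genes summed to 10010 to 10690 CPM in B220+ libraries, against 9691 to 9897 CPM in B220− libraries. Among 10 B and plasma cell genes, which summed to 39.2 to 58.4 CPM in B220+ libraries and 44.1 to 122 CPM in B220− libraries, Mzb1 was at 0 counts in every library. The 10 macrophage and dendritic cell genes summed to 385 to 537 CPM in B220+ libraries, against 255 to 328 CPM in B220− libraries. The sums did not overlap, and none of the genes was at 0 in every library. Most of each sum was Itgax alone, at 365 to 518 CPM in B220+ libraries, against 228.5 to 303 CPM in B220− libraries. The sums therefore follow this gene and not the list as a whole. The 8 stromal, endothelial and erythroid genes summed to 37.2 to 42.3 CPM in B220+ libraries, against 33.5 to 36.8 CPM in B220− libraries. The 6 lists had 9, 13, 3, 4, 6 and 4 genes tested, in the order T cell, epithelial, Paneth, B and plasma, myeloid and stromal. Of these, 4 were called by edgeR, where 11.1% of all genes tested were called. Cd8a was higher in B220+ cells (edgeR adjusted p = 0.00779). Cd247 (0.00107), the B cell kinase gene Blk (0.00421) and the myeloid lysozyme gene Lyz2 (0.0020) were lower. Blk had 5 counts in B220+ libraries against 48 in B220−, and Lyz2 had 23 against 94. Both passed the filter on low counts through the B220− libraries alone. Cd8a lost its call without B220− replicate 3 (edgeR adjusted p = 0.0537) and Blk without B220+ replicate 2 (0.0585). Lyz2 averaged 0.303 ± 0.147 CPM in B220+ cells, against 2.07 ± 0.573 CPM in B220− cells (SD, n = 3 each). The part of these markers in the results was not tested. Whether replicate libraries represent separate mice is not stated by the labels, and p-values then measure only the spread between these libraries, which may be technical. In such bulk samples, fewer cells that express a gene and less of its RNA per cell cannot be told apart.

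Of the 78 members, 65 had enough counts to be tested. Their median log2 fold change (B220+ minus B220−) was −0.039, beside −0.0074 over all 14722 genes tested, and 55 of the 65 lay within 0.3 of 0, as did 10698 of the 14722 genes. With edgeR's quasi-likelihood test and a Benjamini-Hochberg adjusted p under 0.05, 4 of the 65 were called, 1 higher and 3 lower. Across all genes tested 11.1% were called (5.58% higher and 5.56% lower), against 6.15% of the members. The 4 were the J protein genes Dnajc15, Dnajc9 and Dnajc27, all lower in B220+ cells, and the HSP70 relative Hspa13, which was higher. The groups did not overlap for 15 members, 5 higher and 10 lower, where 28.1% of all genes tested had groups that did not overlap. Fitting the replicate number as a block gave 10 calls, of which 3 were higher and 7 lower (15.4% of the members), where 17.5% of all genes were called (8.85% higher and 8.6% lower). All 4 genes called without the block were among the 10, and the other 6 were Hspa2, Hspa4l, Hspa1a, Dnajb1, Dnaja4 and Bag3. That equal numbers mark pairs was read from the data alone, since no label says what a number stands for. Without B220+ replicate 2, and likewise without B220+ replicate 3, the count was 2. Several members overlap a gene on the opposite strand that has over 10% of their counts, among them Hspa1a, Hspd1, Hspe1, Hspb6, Dnaja1, Dnaja4, Bag2 and Bag4, and without all such members 4 of 48 tested were called.

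**Figure D1:**
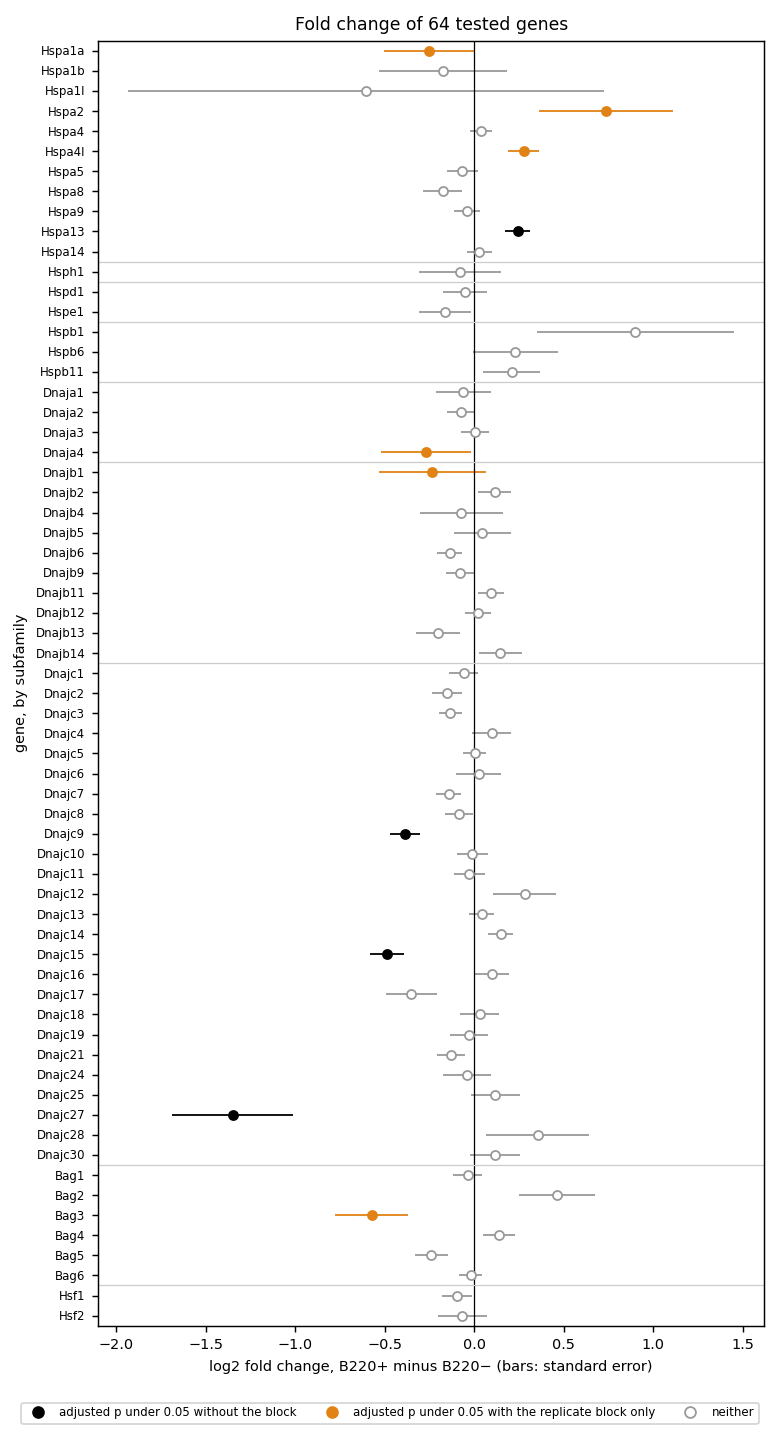
Log2 fold change (B220+ minus B220−, horizontal axis) of 64 of the tested genes, ordered by subfamily down the page, with bars for the standard error. Black points are the 4 genes with an edgeR adjusted p under 0.05, orange points the 6 called with the replicate block alone, and 54 of the 64 points lie within 0.3 of 0.

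Most of the members' RNA came from HSP70 genes. All 78 members together took 1.51%, 2.15% and 1.77% of counts in B220+ replicates 1, 2 and 3, against 1.87%, 2.32% and 1.80% in B220− replicates 1, 2 and 3. The 13 HSP70 genes alone summed to 9746, 14560 and 11390 CPM in the B220+ libraries, against 12590, 16070 and 11390 CPM in the B220− libraries, out of 15120 to 21420 CPM for all members in B220+ and 17800 to 23330 CPM in B220− libraries. Per kilobase of exonic length, the scale on which genes can be compared, Hspa1b stood first at 1520 ± 557 CPM per kb in B220+ cells and 1718 ± 522 CPM per kb in B220− cells (mean ± SD, n = 3 each). Hspa8 followed at 801 ± 118 CPM per kb in B220+ cells, against 904 ± 62.5 CPM per kb in B220− cells, and Hspa1a came next at 739 ± 190 CPM per kb in B220+ cells, against 879 ± 217 CPM per kb in B220− cells. Hspa8 and Hspa1a overlap within their SD, and Hspa1b lies above both by more than the SDs. These SDs do not cover how reads were divided between Hspa1b and Hspa1a, or between Hspa1a and the opposite-strand gene inside it. Next came Hspa5 (346 ± 40.9 CPM per kb in B220+ cells, against 362 ± 4.96 CPM per kb in B220− cells) and Dnajb1 (310 ± 90.6 CPM per kb in B220+ cells, against 365 ± 97.6 CPM per kb in B220− cells), which likewise overlap within their SD. Places 6 to 15 were held by Hspd1, Hsph1, Hspe1, Bag1, Dnaja1, Dnajc8, Dnajb9, Dnaja2, Dnajc3 and Bag6, between 44.7 and 147 CPM per kb averaged over all 6 libraries.

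**Figure D2:**
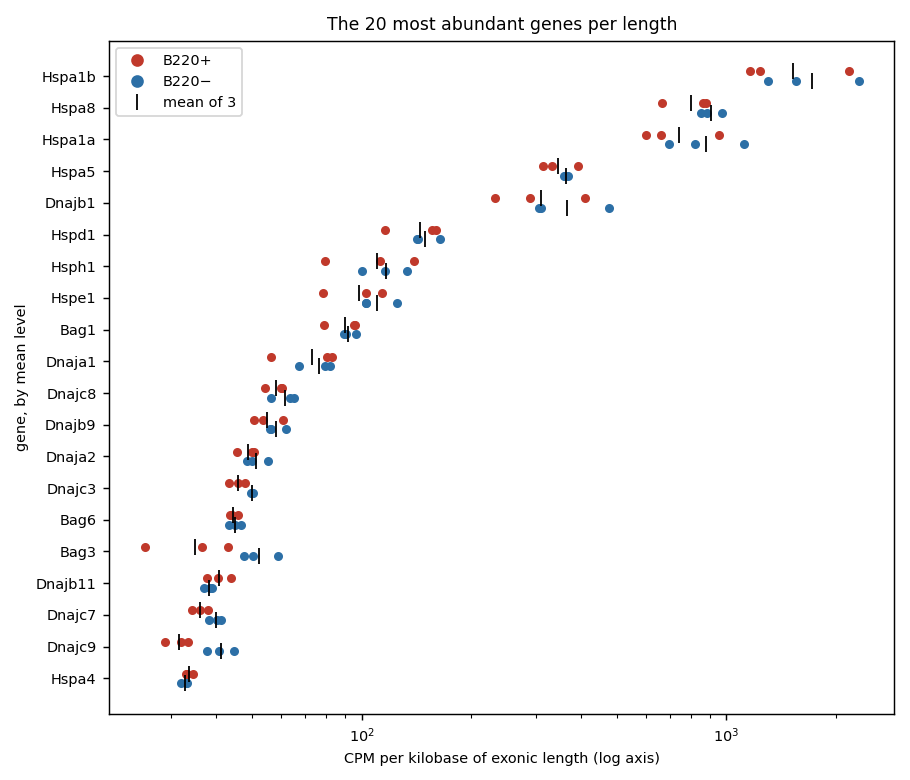
CPM per kilobase of exonic length (horizontal, log axis) of the 20 most abundant genes, in B220+ libraries (red, upper points of each pair) and B220− libraries (blue), with a vertical tick at the mean of 3. Hspa1b leads at means of 1520 in B220+ and 1718 in B220− cells, and the 2 groups' points overlap for most genes.

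Hspa1b and Hspa1a, the main stress-inducible HSP70 genes, were among the most abundant members in every library and did not pass the test between the groups. Hspa1b (mm10 chromosome 17, 34956436 to 34959238, minus strand) had 3252, 6061 and 3473 CPM in B220+ replicates 1, 2 and 3, against 4337, 6458 and 3649 CPM in B220− replicates 1, 2 and 3. Its neighbour Hspa1a (34969190 to 34972156, minus strand) had 1785, 2837 and 1959 CPM in the B220+ libraries, against 2438, 3319 and 2066 CPM in the B220− libraries. Replicate 2 was the highest in both groups for both genes, the groups overlapped, and within each numbered pair the B220+ library was the lower. The log2 fold change was −0.18 for Hspa1b (SE 0.36, edgeR adjusted p = 0.851, or 0.0977 with the replicate block). For Hspa1a it was −0.25 (SE 0.26, edgeR adjusted p = 0.667, or 0.0216 with the replicate block). The coding sequences of this pair are nearly identical, so the division of reads between them is uncertain. Gm20481 lies on the opposite strand, and its 564 exonic bases are all inside Hspa1a. It had 44.6% to 58.8% as many counts as Hspa1a across the libraries. Whether counting separated reads of the 2 by strand is not stated, so they were taken as not told apart.

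The 250 bases before the starts of this pair are shown because HSF1 binds repeats of GAA and its reverse, and because they show how far the copies match. Each sequence is RefSeq's, build GRCm38.p6 (mm10), minus strand, read 5′ to 3′ up to the base before the start, and capitals mark GAANNTTC.
Hspa1b, chr17:34959239-34959488: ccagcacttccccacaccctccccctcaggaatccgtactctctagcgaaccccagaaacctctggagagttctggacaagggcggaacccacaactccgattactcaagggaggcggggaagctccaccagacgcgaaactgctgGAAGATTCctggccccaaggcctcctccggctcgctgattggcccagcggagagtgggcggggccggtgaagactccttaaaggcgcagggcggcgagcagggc
Hspa1a, chr17:34972157-34972406: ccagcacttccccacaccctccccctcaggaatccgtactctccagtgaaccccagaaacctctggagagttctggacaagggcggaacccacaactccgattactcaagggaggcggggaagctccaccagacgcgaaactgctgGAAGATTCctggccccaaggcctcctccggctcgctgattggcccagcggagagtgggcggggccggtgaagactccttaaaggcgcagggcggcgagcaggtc
The 2 sequences are the same at 247 of 250 bases (98.8%), although the gene models lie 9951 bases apart, and the pattern begins 104 bases before the start in both.

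Hspa1l, a relative best known from testis, starts 546 bases from Hspa1a on the plus strand and varied more between libraries than any other tested member. It had 4.75, 44.97 and 6.79 CPM in B220+ replicates 1, 2 and 3, against 20.7, 67.4 and 3.93 CPM in B220− replicates 1, 2 and 3. Its highest library exceeded its lowest 9.47-fold in B220+ and 17.1-fold in B220− cells, with replicate 2 the highest in each, and the groups overlapped. A log2 fold change of −0.60 (SE 1.33) did not pass (edgeR adjusted p = 0.862), and it was 0.65 without B220− replicate 2.

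Hspa2, another HSP70 known chiefly for its part in sperm formation, was higher in the B220+ library of every numbered pair. It had 39.8, 57.0 and 41.5 CPM in B220+ replicates 1, 2 and 3, against 18.5, 42.0 and 22.8 CPM in B220− replicates 1, 2 and 3. B220− replicate 2 reached the B220+ range, so the groups overlapped. At a log2 fold change of 0.74 (SE 0.37) it did not pass (edgeR adjusted p = 0.361), but the adjusted p was 6.2e-04 with the replicate block and 0.00338 without B220− replicate 2.

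Hspa4l, an HSP110-like exchange factor of the HSP70 family, had 53.2, 57.9 and 55.8 CPM in B220+ replicates 1, 2 and 3, against 43.6, 42.3 and 52.7 CPM in B220− replicates 1, 2 and 3. All B220+ libraries were above all B220− libraries, the nearest being B220− replicate 3. The log2 fold change was 0.28 (SE 0.089), with an edgeR adjusted p of 0.0667, or 0.0166 with the replicate block and 0.0232 without B220− replicate 3.

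Hspa13 (chromosome 16, 75745431 to 75767104, minus strand), an ATPase of the HSP70 family that lacks the peptide-binding part, was the only member called higher without the block. It had 55.8, 54.6 and 58.5 CPM in B220+ replicates 1, 2 and 3, against 46.1, 50.2 and 46.2 CPM in B220− replicates 1, 2 and 3. The groups did not overlap and differed 1.18-fold (log2 fold change 0.24, SE 0.072, edgeR adjusted p = 0.0473). The call was near the threshold: with 1 library left out the adjusted p lay between 0.0957 and 0.165 in 5 of 6 fits, and without B220− replicate 2 it was 0.0432.

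The constitutive HSP70 genes did not pass the test. Hspa8, the cytosolic form present in all cells, had 2864, 3699 and 3774 CPM in B220+ replicates 1, 2 and 3, against 3807, 4190 and 3671 CPM in B220− replicates 1, 2 and 3 (log2 fold change −0.17, SE 0.11, edgeR adjusted p = 0.396). Hspa5, which encodes BiP of the endoplasmic reticulum, had 1331, 1402 and 1660 CPM in the B220+ libraries, against 1514, 1555 and 1527 CPM in the B220− libraries (edgeR adjusted p = 0.746). The B220+ libraries spread more widely and enclosed the B220− values. Hspa9, which encodes mitochondrial mortalin, averaged 115 ± 7.55 CPM in B220+ cells, against 118 ± 4.59 CPM in B220− cells (SD, n = 3 each, edgeR adjusted p = 0.818). Hspa4, another exchange factor, averaged 186 ± 4.45 CPM in B220+ cells, against 181 ± 3.66 CPM in B220− cells (edgeR adjusted p = 0.801), and Hspa14, of the ribosome-associated complex, had a log2 fold change of 0.030 (edgeR adjusted p = 0.860).

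Among the partners of HSP70 outside the J proteins, Hsph1, the main inducible HSP110, had 576, 1008 and 816 CPM in B220+ replicates 1, 2 and 3, against 730, 965 and 844 CPM in B220− replicates 1, 2 and 3. Replicate 2 was again the highest in both groups, and the groups overlapped (edgeR adjusted p = 0.893). Hspd1 and Hspe1, which encode the mitochondrial chaperonin HSP60 and its lid HSP10, are transcribed head to head from chromosome 1 and share 112 exonic bases. Hspd1 averaged 381 ± 64.7 CPM in B220+ cells, against 395 ± 33.9 CPM in B220− cells, and Hspe1 averaged 145 ± 26.7 CPM in B220+ cells, against 162 ± 18.8 CPM in B220− cells (SD, n = 3 each, edgeR adjusted p = 0.865 and 0.598). Replicate 2 was the highest in both groups for each.

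Only 3 of the 8 small heat shock protein genes had enough counts to be tested, and together the 8 summed to 32.5, 52.7 and 40.3 CPM in B220+ replicates 1, 2 and 3, against 28.1, 36.3 and 18.4 CPM in B220− replicates 1, 2 and 3. Hspb1, which encodes the actin-protecting HSP25 of mouse, had 16.0, 37.5 and 23.1 CPM in the B220+ libraries, against 12.2, 22.1 and 6.91 CPM in the B220− libraries. Each B220+ library was above the B220− library of its number, replicate 2 was the highest in both groups, and the groups overlapped. The log2 fold change of 0.90 was the highest of the 65 members, with an SE of 0.55, and did not pass (edgeR adjusted p = 0.455, or 0.1098 with the replicate block). Hspb6 (HSP20) stood at 2.88 to 4.28 CPM in B220+ libraries, against 2.71 to 3.29 CPM in B220− libraries. Hspb11, a part of the intraflagellar transport machinery, stood at 10.6 to 13.7 CPM in B220+ libraries, against 8.83 to 12.4 CPM in B220− libraries. Neither passed (edgeR adjusted p = 0.644 and 0.504).

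**Figure D3:**
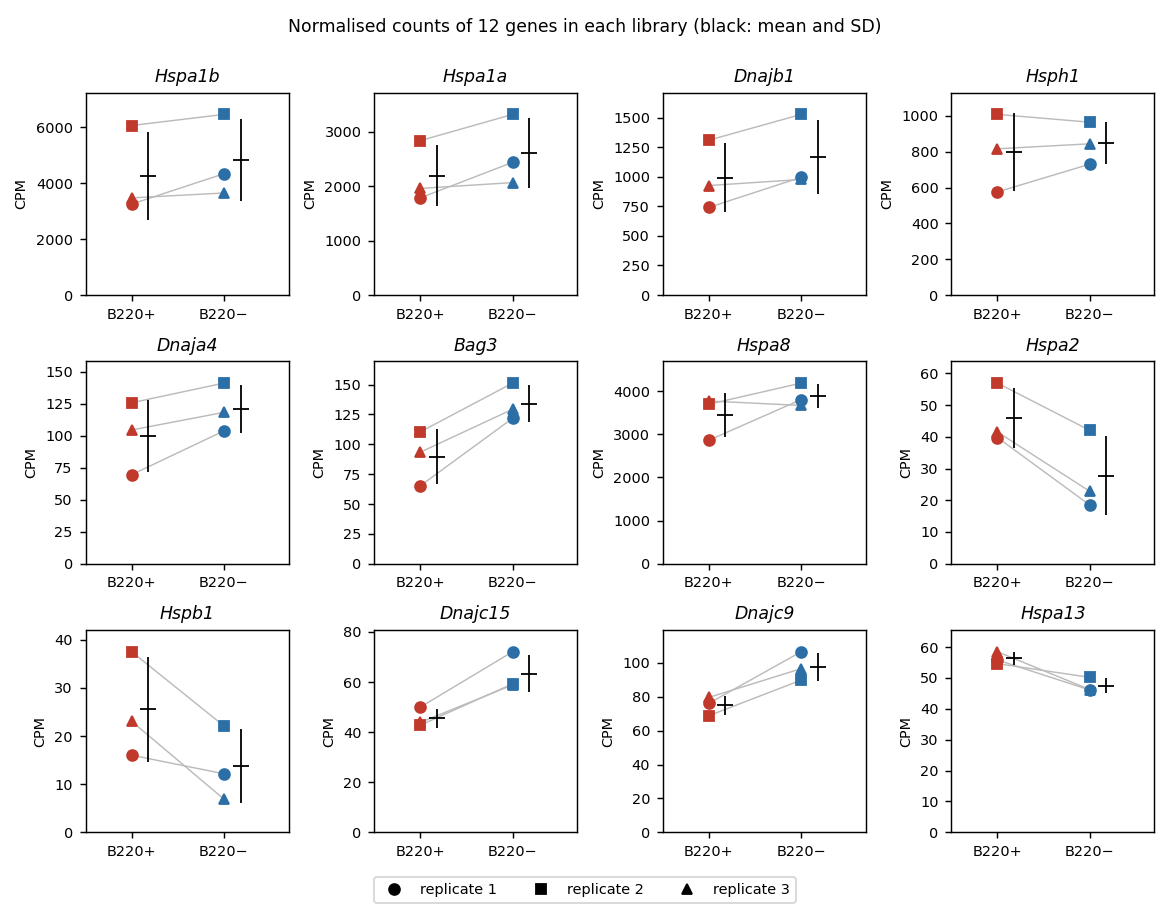
CPM (vertical axis from 0) of 12 genes in B220+ (left, red) and B220− libraries (right, blue), with 1 symbol per replicate number, grey lines between equal numbers, and the mean and SD in black. Replicate 2 is the highest in both groups for Hspa1b, Hspa1a, Dnajb1, Hsph1, Dnaja4, Bag3, Hspa2 and Hspb1, while the groups do not overlap for Bag3, Dnajc15, Dnajc9 and Hspa13.

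J proteins made up 45 of the 78 members and 39 of the 65 tested, of which 3 (7.69%) were called, beside 11.1% of all genes. The 3 belong to the DNAJC class, whose members share with the other classes only the J domain. Of the 25 DNAJC genes tested, 0 were called higher and 3 lower (12%, near the 11.1% of all genes called in either direction, of which 5.56% lower), and the class median log2 fold change was −0.026. None of the 4 DNAJA and 10 DNAJB genes tested was called by edgeR at an adjusted p under 0.05 or by DESeq2. Of these genes 0 had an unadjusted edgeR p under 0.05, where 3305 of all 14722 genes tested did. With the replicate block, 1 DNAJA gene and 1 DNAJB gene were called, both lower, where the block called 17.5% of all genes (8.6% lower).

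Dnajc15 (ENSMUSG00000022013, chromosome 14, 77820681 to 77875125, minus strand) encodes MCJ, a J protein of the mitochondrial inner membrane known to restrain complex I of the respiratory chain. It had 49.97, 42.8 and 43.9 CPM in B220+ replicates 1, 2 and 3, against 72.1, 59.3 and 58.8 CPM in B220− replicates 1, 2 and 3. Every B220+ library lay below every B220− library. Dnajc15 fell by 0.49 on the log2 scale (SE 0.095, 1.40-fold, edgeR adjusted p = 0.0049). With 1 library left out it was called in all 6 fits, at edgeR adjusted p of 0.00341 to 0.0377.

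Dnajc9 (ENSMUSG00000021811, chromosome 14, 20384638 to 20388910, minus strand) encodes a J protein that is also a chaperone of histones H3 and H4. It had 76.1, 68.8 and 79.6 CPM in B220+ replicates 1, 2 and 3, against 107, 89.8 and 96.5 CPM in B220− replicates 1, 2 and 3. The groups did not overlap. Dnajc9 fell by 0.39 on the log2 scale (SE 0.084, 1.31-fold, edgeR adjusted p = 0.00939), and its adjusted p was 0.0574 without B220+ replicate 2.

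Dnajc27 (ENSMUSG00000020657, chromosome 12, 4082583 to 4110606, plus strand) encodes a Rab-like GTPase with a J domain. It was far rarer, with 7, 48 and 12 counts in B220+ replicates 1, 2 and 3, against 44, 38 and 31 counts in B220− replicates 1, 2 and 3. These are 0.594, 1.21 and 0.849 CPM in the B220+ libraries, against 2.37, 2.15 and 2.71 CPM in the B220− libraries, with no overlap. Dnajc27 fell by 1.35 on the log2 scale (SE 0.34, 2.55-fold, edgeR adjusted p = 0.0215), the lowest of the 65 members. The B220+ libraries alone would not have passed the filter on low counts, since B220+ replicate 1 was below its level. At this depth the call depended on single libraries, with an adjusted p of 0.0669 without B220+ replicate 1, 0.0716 without B220+ replicate 3 and 0.0782 without B220− replicate 3.

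Dnajb1, the inducible HSP40 that works with HSPA1A, had 742, 1311 and 927 CPM in B220+ replicates 1, 2 and 3, against 997, 1529 and 978 CPM in B220− replicates 1, 2 and 3. As for Hspa1a, replicate 2 was the highest in both groups, the B220+ library was the lower of each pair, and the groups overlapped. The log2 fold change was −0.23 (SE 0.30, edgeR adjusted p = 0.746, or 0.0187 with the replicate block). Dnaja4, another inducible J protein, had 69.7, 126 and 105 CPM in the B220+ libraries, against 104, 141 and 118 CPM in the B220− libraries (log2 fold change −0.27, SE 0.25, edgeR adjusted p = 0.639, or 0.0121 with the replicate block). Dnaja4 shares 1581 exonic bases with Wdr61 on the opposite strand, whose counts were 57.4% of its own. Dnaja1 and Dnaja2, the general cytosolic J proteins of their class, averaged 632 ± 125 and 145 ± 8.39 CPM in B220+ cells, against 659 ± 68.7 and 153 ± 11.1 CPM in B220− cells (SD, n = 3 each, edgeR adjusted p = 0.879 and 0.632). Dnajc8, a splicing-associated J protein, averaged 149 ± 9.03 CPM in B220+ cells, against 158 ± 12.1 CPM in B220− cells (edgeR adjusted p = 0.597).

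The J proteins of the endoplasmic reticulum, which serve BiP, did not pass the test. Dnajc3 (p58IPK) averaged 235 ± 11.6 CPM in B220+ cells, against 257 ± 1.24 CPM in B220− cells, and Dnajb9 (ERdj4) averaged 140 ± 13.3 CPM in B220+ cells, against 148 ± 8.51 CPM in B220− cells (SD, n = 3 each, edgeR adjusted p = 0.254 and 0.640). Dnajb11 (ERdj3) averaged 131 ± 9.77 CPM in B220+ cells, against 123 ± 3.02 CPM in B220− cells (edgeR adjusted p = 0.517). For Dnajc3 the groups did not overlap, with 223, 235 and 246 CPM in B220+ replicates 1, 2 and 3, against 258, 256 and 258 CPM in B220− replicates 1, 2 and 3.

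Of the 6 BAG genes, 0 were called by edgeR. An unadjusted edgeR p under 0.05 was found for 3 of them and for 3305 of all 14722 genes tested. DESeq2 called 1 BAG gene, beside 10% of all genes with an adjusted p. Bag3 (chromosome 7, 128523616 to 128546981, plus strand), the heat-inducible member that links HSP70 to small heat shock proteins and to autophagy, was the one called. It had 65.2, 110 and 93.4 CPM in B220+ replicates 1, 2 and 3, against 122, 151 and 129 CPM in B220− replicates 1, 2 and 3. All B220+ libraries lay below all B220− libraries, with replicate 2 the highest of each group. The log2 fold change of −0.57 (SE 0.20) had an edgeR adjusted p of 0.171 without the block and 2.42e-04 with it. The adjusted p was 0.00137 with DESeq2, and 0.0480 with edgeR without B220+ replicate 1.

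Bag1, which joins HSP70 to the proteasome, and Bag6, which captures mislocalised membrane proteins, averaged 121 ± 13.1 and 276 ± 7.37 CPM in B220+ cells, against 124 ± 5.11 and 280 ± 10.5 CPM in B220− cells (SD, n = 3 each, edgeR adjusted p = 0.860 and 0.904). Bag5 averaged 21.8 ± 0.464 CPM in B220+ cells, against 25.7 ± 1.21 CPM in B220− cells with no overlap, and its edgeR adjusted p was 0.130. Bag2, an inhibitor of the HSP70-bound ubiquitin ligase CHIP, averaged 5.21 ± 0.450 CPM in B220+ cells, against 3.76 ± 0.747 CPM in B220− cells, also with no overlap (edgeR adjusted p = 0.216). Bag4, a silencer of the tumour necrosis factor receptor, averaged 43.8 ± 4.74 CPM in B220+ cells, against 39.8 ± 2.21 CPM in B220− cells (edgeR adjusted p = 0.420).

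The transcription factor genes did not pass either. Hsf1 had 68.5, 78.5 and 77.6 CPM in B220+ replicates 1, 2 and 3, against 72.8, 84.3 and 83.6 CPM in B220− replicates 1, 2 and 3 (log2 fold change −0.096, SE 0.083, edgeR adjusted p = 0.572). Hsf2 had 15.4, 21.4 and 16.2 CPM in the B220+ libraries, against 20.4, 18.02 and 17.7 CPM in the B220− libraries (edgeR adjusted p = 0.849). The groups overlapped for both genes, and transcript levels do not show whether the factors were active.

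The 13 members that were not tested had between 0 and 42 counts over all 6 libraries. Hspb8, Hspb3 and Dnajc5g had no count, which allows up to 0.0755 CPM in the deepest library and 0.262 CPM in the shallowest (3 counts, counting error only). The other 10 were Hspa12a, Hspa12b, Hspb2, Hspb7, Hspb9, Dnajb3, Dnajb7, Dnajb8, Dnajc5b and Dnajc22. The remaining tested members stood within a log2 fold change of −0.35 to 0.36, and none of them was called by edgeR, with or without the block, or by DESeq2.

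Many members shared a pattern over the replicate numbers. Replicate 2 was the highest library in both groups for 17 of the 65 tested members (26.2%), where 14.2% of all genes tested had it highest in both. For replicates 1 and 3 the shares over all genes were 16.9% and 12.5%. The 17 were Hspa1a, Hspa1b, Hspa1l, Hspa2, Hsph1, Hspd1, Hspe1, Hspb1, Dnajb1, Dnajb4, Dnajb14, Dnaja4, Dnajc4, Dnajc6, Dnajc13, Bag3 and Hsf1. B220+ replicate 2 was the deepest library, while B220− replicate 2 was shallower than B220− replicate 1. Of 24 immediate early genes, such as Fos, Jun and Egr1, which activation and tissue dissociation both raise, 17 (70.8%) were likewise highest in replicate 2 in both groups. Jun had 1441, 2348 and 1671 CPM in B220+ replicates 1, 2 and 3, against 1837, 2823 and 1926 CPM in B220− replicates 1, 2 and 3. The part of the immediate early genes in the members' levels was not tested.

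**Figure D4:**
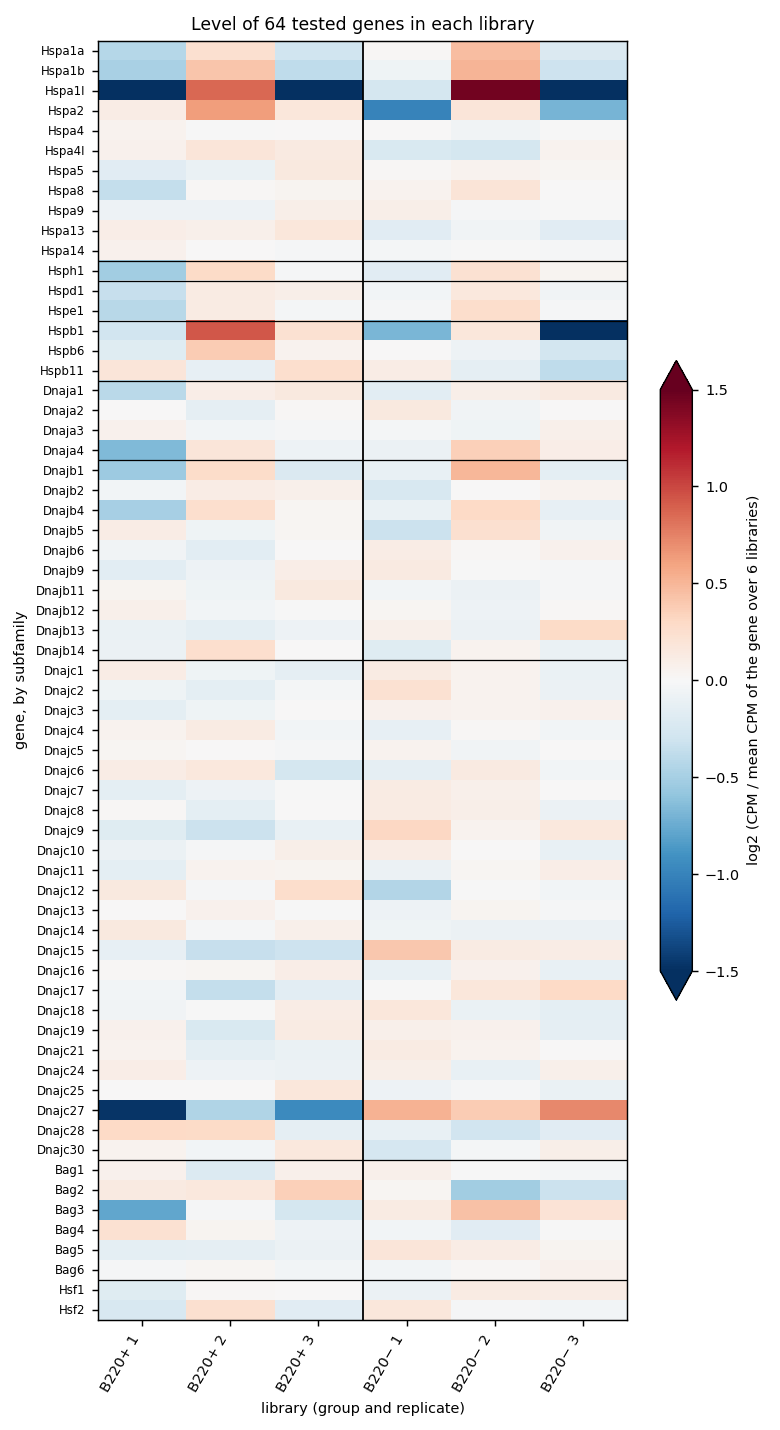
Level of 64 of the tested genes in each library, as log2 of its CPM over its mean CPM in all 6 libraries (colour, limited to 1.5 either way), with B220+ libraries left of the line and B220− libraries right of it. The columns of replicate 2 hold the highest value of both groups for 17 genes. Among these, Hspa1l has the strongest colours.

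The replicate block gave smaller standard errors for several of these genes. The SE of the log2 fold change was 0.36 without the block and 0.076 with it for Hspa1b, 0.30 and 0.069 for Dnajb1, 0.20 and 0.081 for Bag3, and 0.37 and 0.11 for Hspa2. For Dnajc27 it was 0.34 without the block and 0.35 with it. Over the 65 members the median ratio of the SE with the block to that without was 0.880, against 0.908 over all genes tested. Without both libraries numbered 2, a setting chosen after seeing the data, the log2 fold change was −0.25 for Hspa1b, −0.27 for Hspa1a and −0.24 for Dnajb1, with edgeR adjusted p of 0.309, 0.240 and 0.292. In that setting Bag3 stood at −0.66 (adjusted p = 0.0476) and Hspa2 at 0.99 (adjusted p = 5.8e-04), and 8.59% of all genes were called (4.46% higher and 4.14% lower).

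**Figure D5:**
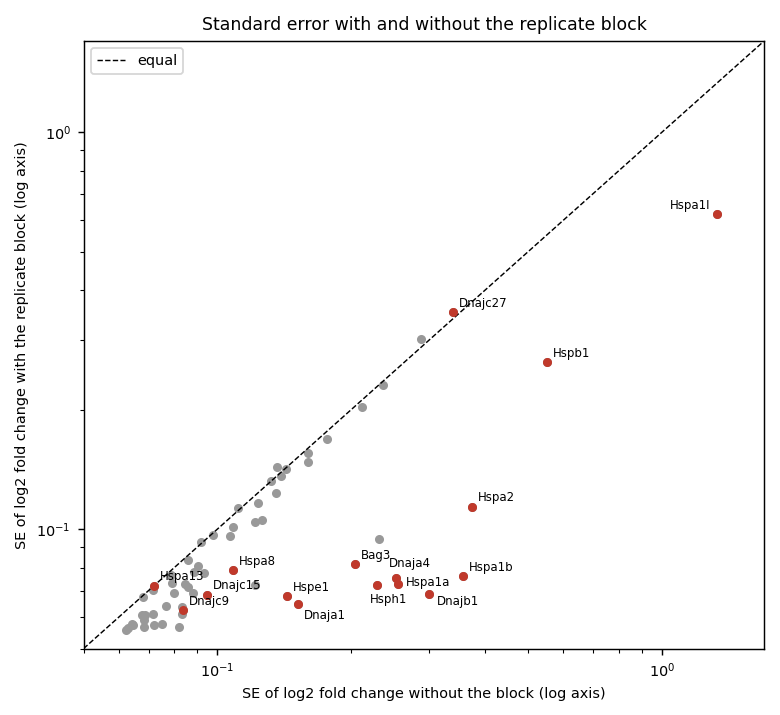
Standard error of the log2 fold change of 64 of the tested genes without (horizontal) and with the replicate block (vertical), both on log axes, with a dashed line where they are equal. Hspa1b, Dnajb1, Hspa1a, Hsph1, Dnaja4, Hspa2 and Bag3 lie far below the line, while Dnajc27 and Hspa13 lie on it.

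Patterns of the heat shock element were looked up in the 250 bases before RefSeq gene starts (build GRCm38.p6, 32851 windows), where 63 of the 78 members had an entry. On both strands, GAANNTTC was in 6.69% of all windows and in 12 of the 81 member windows, those of 11 members. TTCNNGAA was in 7.17% of windows and in 8 of the 81 member windows, those of 6 members. The longer GAANNTTCNNGAA, which holds both, was in 0.466% of windows and in 4 of the 81 member windows. These belong to 3 members, Dnajb6 and the head-to-head pair Hspd1 and Hspe1. Either short pattern was in 16 of the 81 member windows, against 12.8% of all windows. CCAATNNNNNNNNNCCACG, the endoplasmic reticulum stress element, was in 0.113% of windows and in 2 of the 81 member windows. These belong to Hspa5 and Dnajc3, whose products work together in that compartment. A match describes the letters and is no sign of binding.

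The sequences with these patterns are shown for genes that varied with the replicate number (Hspb1, Hspe1, Hsph1) and for the pair with the endoplasmic reticulum element. All are from RefSeq, build GRCm38.p6, 5′ to 3′ on the gene's strand, with the 250 bases before the start for Hspb1 and 30 bases around the pattern for the others, and capitals mark the patterns.
Hspb1, chr5:135887669-135887918, plus strand: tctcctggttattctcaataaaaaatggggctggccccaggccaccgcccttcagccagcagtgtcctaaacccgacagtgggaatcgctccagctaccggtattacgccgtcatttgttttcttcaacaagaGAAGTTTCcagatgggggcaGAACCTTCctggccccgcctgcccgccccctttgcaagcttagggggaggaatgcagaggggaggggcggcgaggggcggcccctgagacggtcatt
Hspe1, chr1:55088053-55088082, plus strand: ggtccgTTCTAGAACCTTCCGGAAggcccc
Hsph1, chr5:149636351-149636380, minus strand: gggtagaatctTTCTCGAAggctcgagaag
Hspa5, chr2:34772019-34772048, plus strand: acttcaCCAATCGGAGGCCTCCACGacggg
Dnajc3, chr14:118937821-118937850, plus strand: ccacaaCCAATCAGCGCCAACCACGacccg
Hspb1 has 2 separate matches, and in Hspe1 3 overlapping matches form 1 run. Among members tested and in the table, the 13 with either short pattern had a median ratio of highest to lowest library within a group, averaged over both groups, of 1.51, and 8 of them were highest in replicate 2 in both groups. For the 40 without one the median ratio was 1.15, and 8 were highest in replicate 2 in both groups. The 13 are not all separate cases, since Hspa1a and Hspa1b have nearly the same promoter and Hspd1 and Hspe1 start head to head. All of these are among the 8 with a pattern that were highest in replicate 2. This is a description of these genes, with no test.

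Genes that work beside the members were counted against the same shares of all genes, 11.1% called and 17.5% with the replicate block. An unadjusted edgeR p under 0.05 was found for 3305 of all 14722 genes tested. None of 28 HSP90 genes and HSP90 cochaperones was called by edgeR, by DESeq2 or with the replicate block, and 0 had an unadjusted edgeR p under 0.05. Their median log2 fold change was −0.038. Hsp90ab1, the constitutive cytosolic HSP90, had 2618, 3187 and 3295 CPM in B220+ replicates 1, 2 and 3, against 3174, 3581 and 3307 CPM in B220− replicates 1, 2 and 3, and Hsp90aa1, the inducible one, had 1193, 1976 and 1674 CPM in the B220+ libraries, against 1570, 2055 and 1638 CPM in the B220− libraries (edgeR adjusted p = 0.445 and 0.813). The groups overlapped for both. Hsp90b1, of the endoplasmic reticulum, averaged 529 ± 67.3 CPM in B220+ cells, against 471 ± 35.9 CPM in B220− cells (SD, n = 3 each, edgeR adjusted p = 0.331). Of 16 other HSP70 regulators (such as Stub1 and Hspbp1) and of 15 TRiC chaperonin and prefoldin genes, 0 were called by edgeR, by DESeq2 or with the block. Of these, 1 HSP70 regulator and 0 chaperonin genes had an unadjusted edgeR p under 0.05.

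Among 24 tested genes of endoplasmic reticulum chaperones and the unfolded protein response, 0 were called by edgeR. An unadjusted edgeR p under 0.05 was found for 2 of them, beside 3305 of all 14722 genes tested. With the replicate block 4 were called (16.7%, near the 17.5% of all genes), and 1 with DESeq2. With the block Atf3, Sdf2l1 and Syvn1 were higher and Ppp1r15a was lower. Atf3, a stress-induced transcription factor, averaged 59.0 ± 22.9 CPM in B220+ cells, against 31.4 ± 12.7 CPM in B220− cells (edgeR adjusted p = 0.350, or 1.03e-06 with the block). Of 11 mitochondrial proteases and stress genes 1 was called (9.09%, beside 11.1% of all genes), the inner membrane protease Afg3l2, at 174 ± 13.4 CPM in B220+ cells, against 146 ± 8.37 CPM in B220− cells (log2 fold change 0.25, edgeR adjusted p = 0.0479). Of 12 tested HSF partners and other heat shock targets 1 was called (8.33%), Hsf2bp, a partner of HSF2, at 0.466 ± 0.207 CPM in B220+ cells, against 1.499 ± 0.443 CPM in B220− cells (log2 fold change −1.504, edgeR adjusted p = 0.0408). Hsf2bp had 37 counts in B220+ libraries against 68 in B220−, and passed the filter on low counts only through the B220− group. With 1 library left out, Hsf2bp lost its call in all 6 fits. Afg3l2 lost its call in the 4 without B220+ replicate 1 or 2 or B220− replicate 1 or 3.

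Of the 24 immediate early genes tested, 2 were called higher (Fosl2 and Egr3) and 5 lower (Dusp1, Dusp2, Zfp36, Klf6 and Nfkbia), 29.2% beside the 11.1% of all genes. The count was 3 without B220+ replicate 1, and 4 without B220+ replicate 3, B220− replicate 2 or B220− replicate 3. With the replicate block 18 were called (75%), 4 higher and 14 lower, beside 17.5% of all genes (8.85% higher and 8.6% lower). Dusp2, a nuclear phosphatase of MAP kinases, averaged 64.6 ± 11.1 CPM in B220+ cells, against 143 ± 6.06 CPM in B220− cells (edgeR adjusted p = 7.2e-05). Nfkbia, the inhibitor of NF-κB, averaged 194 ± 16.2 CPM in B220+ cells, against 268 ± 10.4 CPM in B220− cells (edgeR adjusted p = 0.00121). Fosl2, an AP-1 subunit, averaged 596 ± 17.0 CPM in B220+ cells, against 377 ± 73.4 CPM in B220− cells (edgeR adjusted p = 0.00955), and lost its call without B220+ replicate 2 (adjusted p = 0.0583) or B220+ replicate 3. Egr3, Zfp36 and Klf6 each lost their call in 5 of the 6 fits with 1 library left out, and Dusp1 in 3. Dusp2 and Nfkbia kept theirs in all 6. Lists of this kind share members, since Atf3 and Ppp1r15a also stand among the unfolded protein response genes.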

How the data were processed

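Total RNA of 6 libraries of sorted lymphocytes had been prepared with a directional kit, per the labels' protocols. The values the authors deposited are raw counts of reads for each gene, as whole numbers. FastQC 0.11.7, Trimmomatic 0.38, HISAT2 2.1.0, SAMtools 1.9, featureCounts 1.6.3 and the mm10 build are named in the submitters' processing notes, and the sources used here do not give their options, including strand and reads with several matches. Genes that overlap on opposite strands were therefore taken to have reads that cannot be told apart. Of 78 members, 75 had the same ends as in GENCODE release M21, which gave exonic lengths.

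Counts were tested with edgeR 4.0.16 in R 4.3.3: trimmed-mean scaling, the filter on low counts (filterByExpr, which asks in at least 3 libraries for the CPM that 10 counts give at the median library size, and for 15 counts in total), a robust quasi-likelihood fit on the group alone, and Benjamini-Hochberg adjustment over the 14722 genes tested, called under 0.05. Fold changes are log2 values of B220+ minus B220−. CPM uses scaled library sizes. The procedure was tested on simulated data. The changed genes there had larger fold changes than Dnajc15, Dnajc9 and Hspa13, and no effect of the replicate number was simulated. Alternatives were DESeq2 1.42.0 with its own size factors, those factors in edgeR, no filter, a replicate block, leaving out each library in turn and, chosen after seeing the data, leaving out both libraries numbered 2. Groups and replicate numbers are from the sample titles. Deviations from the group means correlated across genes at 0.295, 0.246 and 0.272 between libraries of equal number and at −0.203 to −0.0675 between others. On this ground equal numbers were treated as pairs. Deviations within a group sum to 0, so higher values for equal numbers push the others down, and the 2 ranges are not independent. The block fit used these same data. The submitters' names for the count columns share no number between the groups.

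Genes named are the called members, members whose call changed in an alternative, the 15 most abundant per kilobase, textbook members, the 8 with the largest change and the called genes of the related lists, and further genes were named after their values were seen. Members and lists were chosen with earlier results of these data known. Symbols of the promoter table were matched by name. Protein sequences were not analysed here. Of the members, 1 enters the counts and medians but is not reported here by name or drawn.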

Additional observations from a re-analysis of the deposited data

How the results depend on the processing

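For the members, 4 calls became 10 with the replicate block and 2 to 5 in the 6 fits that left out 1 library. For all genes, 1639 calls became 2569 with the replicate block and 970 to 1789 with 1 library left out. The unfolded protein response list had 0 calls, 1 with DESeq2, 2 with no filter on low counts, 4 with the replicate block, 1 with both libraries numbered 2 left out, and 0 to 1 with 1 library left out. The mitochondrial list had 1, then 0 with both libraries numbered 2 left out and 0 to 1 with 1 left out. The HSF partner list had 1, then 0 with DESeq2, 3 with no filter, 3 with the replicate block and 0 to 1 with 1 left out. The immediate early list had 7, then 18 with the replicate block and 3 to 5 with 1 left out. The remaining 3 lists had 0 calls in each of these settings. Dnajc15 was called in every alternative run. Hspa13 was not called with DESeq2 (adjusted p = 0.105), with no filter (0.0634) or with both libraries numbered 2 left out (0.0852). Hspa4l was called with no filter (0.0237). The replicate block changed no call among the members beyond the 6 named. Directions of uncalled members turned in some fits: Bag1 stood at 0.042 with both libraries numbered 2 left out. With 1 library left out, log2 fold changes ran over −0.083 to 0.054 for Bag1, −0.044 to 0.0058 for Bag6, −0.15 to 0.097 for Dnaja1, −0.49 to 0.0087 for Dnajb1, −0.24 to 0.022 for Hsf2, −0.52 to 0.094 for Hspa1b, −2.42 to 0.65 for Hspa1l, −0.16 to 4.0e-04 for Hspa5, −0.14 to 0.083 for Hspd1 and −0.28 to 0.11 for Hsph1. The cause was not tested for any of these. Depth limits Dnajc27 and the 13 members that were not tested.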
